A study of Homo sapiens with 12 samples.

Results

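Ragulator, the Rag GTPases and SLC38A9 form the lysosomal machinery that reports amino acids to the kinase complex mTORC1. The 9 genes described here are the Ragulator subunit genes LAMTOR1, LAMTOR2, LAMTOR3, LAMTOR4 and LAMTOR5, the Rag GTPase genes RRAGA, RRAGC and RRAGD, and the amino acid transporter gene SLC38A9. They were chosen by name as parts of 1 protein machine, and they are 9 of the 17520 genes in the expression table. Their gene bodies held 41 of the 96671 m6A sites listed for cells given insulin and 25 of the 63578 listed for cells given insulin and Torin1. The cells were HEK293E, an established line derived from human embryonic kidney. All were starved of serum overnight and then kept with 200 nM insulin for 30 h, so insulin was present in every library. One group had insulin alone, and the other was pretreated with 250 nM Torin1, a compound that inhibits the kinase mTOR. Each group gave 3 input RNA libraries and 3 miCLIP libraries (12 samples in all), made from mRNA selected on poly(A). miCLIP maps N6-methyladenosine (m6A): RNA is crosslinked to an m6A antibody, and the base it marks is read from substitutions.

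Ragulator is a scaffold on the lysosomal surface. LAMTOR1 carries lipid anchors and wraps around the other subunits, which pair as LAMTOR2 with LAMTOR3 and LAMTOR4 with LAMTOR5. Ragulator holds the Rag GTPases, which work as pairs of RRAGA or RRAGB with RRAGC or RRAGD. When amino acids are plentiful the Rag pair binds mTORC1 and brings it to the lysosome, where the small GTPase RHEB activates it. SLC38A9 is a membrane protein that senses lysosomal arginine and contacts both Ragulator and the Rag pair.

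Expression values are the authors' normalized, rounded values, called normalized units here. They are not divided by gene length, so levels are compared within a gene and not between genes. Library totals were 12424643 to 12528454 units with insulin and 11418114 to 11438881 with Torin1. In 5 libraries the worth of 1 read could be read from the grid of low values, and these held 7.32 to 11.8 M reads. No estimate was made for Torin1 replicate 1, where no worth above 1 unit, the only range tried, was accepted. The labels call the replicates biological but name no separate cultures, and the spread that p-values measure here may be technical. In bulk RNA a smaller share of cells and less RNA per cell cannot be told apart. Of the genes that mark the line, VIM, NEFM, LHX1 and EYA1 were detected and PAX2 was at 6 to 11 units. The summed level of the line's marker list was 3325 to 3356 with insulin and 8263 to 8297 with Torin1, mostly VIM, and PTPRC, the marker of blood cells, was at 0 to 1. Their part in the results was not tested.

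With Torin1 the mRNA of the machine differed in direction and size from gene to gene. LAMTOR2 and SLC38A9 rose by 3.69-fold and 5.43-fold, and RRAGC fell by 2.22-fold. LAMTOR5 rose by less, LAMTOR3 and RRAGA fell by less, and LAMTOR1 and RRAGD rose by small amounts that single libraries decide. LAMTOR4 did not pass the test. A gene was called when limma's Benjamini-Hochberg adjusted p, over all 13842 genes tested, was below 0.05. By that rule 5 of the 9 genes were higher, where 43.4% of all genes tested were, and 3 were lower, where 42.5% were. When limma asked for a change beyond 1.5-fold, 2 were higher (25.0% of all genes) and 1 was lower (22.5%). The values of 8 of the 9 did not overlap between groups, as was true of 86.3% of all genes tested. These shares lie near those of the whole table, so what follows describes each gene and claims nothing particular to the set. The median absolute log2 fold change was 0.55 for the 9 genes and 0.74 for all genes.

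**Figure D1:**
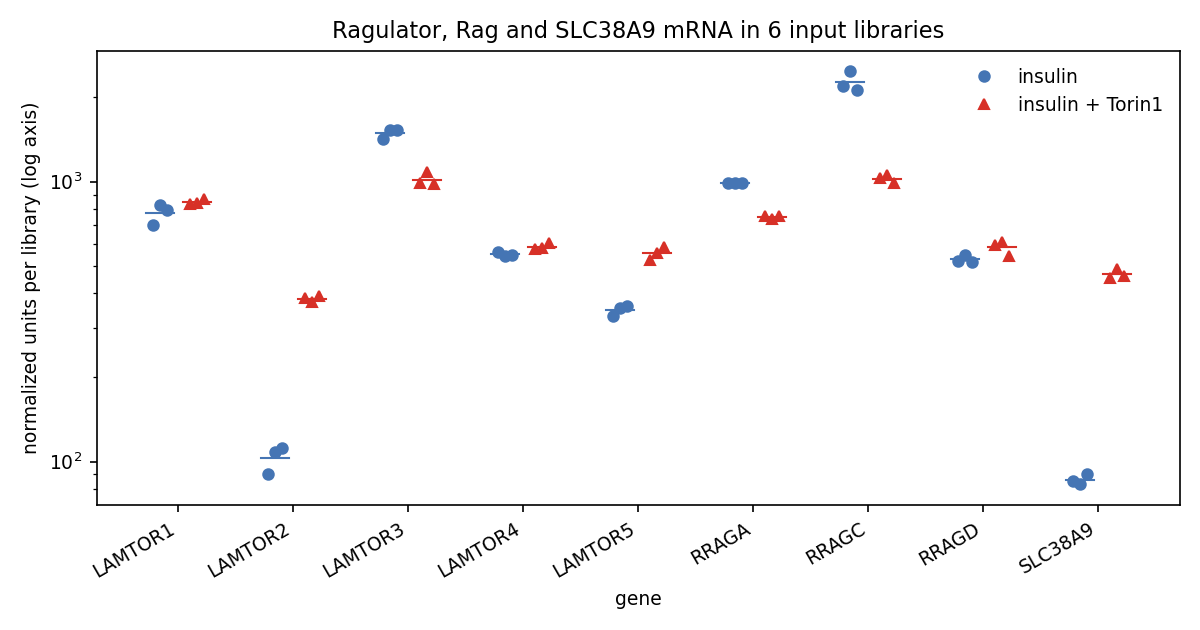
Normalized units (log axis, not divided by gene length) of the 9 genes in the 6 input libraries; points are libraries, circles for insulin alone and triangles for insulin with Torin1, and short lines are group means. LAMTOR2 and SLC38A9 are higher and RRAGC is lower in all 3 Torin1 libraries, while in RRAGD the groups overlap.

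LAMTOR1 encodes the anchor of Ragulator. It was at 703, 824 and 790 units in the insulin libraries and at 829, 840 and 869 in the Torin1 libraries. The groups did not overlap, but the second insulin library lay just under the lowest Torin1 library. The mean went from 772 ± 62.4 to 846 ± 20.7 (SD, n = 3 each), and the log2 fold change was 0.13 (SE 0.06, limma adjusted p = 0.0296). The call was lost without insulin replicate 1 (log2 fold change 0.07, adjusted p = 0.208), without Torin1 replicate 2 (adjusted p = 0.0535) and without Torin1 replicate 3 (adjusted p = 0.11). With equal library totals the log2 fold change was 0.26 (adjusted p = 0.000134), and with quantile normalization it was 0.23 (adjusted p = 0.000458). All 6006 nt of LAMTOR1 lie within LRTOMT on the opposite strand (chr11:72080850-72110782), which itself fell from 209 ± 8.89 to 146 ± 11.7 units. Whether the counting used strand is not given in the sources used here, so reads of the pair may not have been told apart.

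LAMTOR2 encodes one of the paired subunits at the centre of the scaffold. Its values were 90, 108 and 112 units with insulin and 383, 371 and 391 with Torin1. The 3 Torin1 libraries lay close together and far above all insulin libraries. The mean rose from 103 ± 11.7 to 382 ± 10.1 units (SD, n = 3 each), and the log2 fold change was 1.88 (SE 0.10, limma adjusted p = 1.62e-14). The change also passed beyond 1.5-fold, with an adjusted p of 2.3e-11. The values rest on about 53 to 360 reads per library in the 5 libraries whose reads could be estimated.

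LAMTOR3 encodes the partner of LAMTOR2 and is also known as a scaffold of MEK and ERK kinases. It was at 1422, 1530 and 1532 units with insulin and at 992, 1084 and 979 with Torin1. The groups were well apart, and the means were 1495 ± 62.9 and 1018 ± 57.2, with a log2 fold change of -0.55 (SE 0.05, limma adjusted p = 1.78e-10). With quantile normalization the log2 fold change was -0.36 (adjusted p = 3.33e-07). The direction was opposite to that of LAMTOR2, although the proteins form a pair. The 95% intervals of the log2 fold changes were -0.65 to -0.46 for LAMTOR3 and 1.68 to 2.08 for LAMTOR2.

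LAMTOR4 encodes a subunit of the second pair. Its values were 562, 543 and 548 units with insulin and 577, 579 and 602 with Torin1. The groups did not overlap, yet the means of 551 ± 9.85 and 586 ± 13.9 differed by a log2 fold change of only 0.09 (95% interval -0.03 to 0.20, limma adjusted p = 0.134). Scaling the libraries to equal totals moves the median of all genes by 0.13 on the log2 scale, and by that scaling LAMTOR4 was called at 0.21, beside a median of 0.15 for all genes.

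LAMTOR5 encodes the partner of LAMTOR4. It was at 332, 354 and 361 units with insulin and at 526, 555 and 584 with Torin1. The lowest Torin1 library stood far above the highest insulin library. The mean rose from 349 ± 15.1 to 555 ± 29.0, a log2 fold change of 0.67 (SE 0.06, limma adjusted p = 1.69e-09). That is a 1.59-fold rise, and it did not pass beyond 1.5-fold (adjusted p = 0.209). A noncoding gene, LAMTOR5-AS1, overlaps 116 nt of LAMTOR5 on the other strand. RefSeq also names the pseudogenes LAMTOR3P1, LAMTOR3P2, LAMTOR5P1 and RRAGAP1, and how the authors' counting treated reads shared with them is not given in the sources used here.

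Of the 5 Ragulator genes, then, 3 were called higher, where 43.4% of all genes tested were, and 1 lower, where 42.5% were. The other was not called, and the median log2 fold change was 0.13. That median is the value of LAMTOR1, which is among the 3 though single libraries decide its call. The values for the subunits of each pair differed: 1.88 against -0.55 for LAMTOR2 and LAMTOR3, and 0.67 against 0.09 for LAMTOR5 and LAMTOR4.

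RRAGA encodes the Rag that binds mTORC1 when loaded with GTP. It was at 986, 993 and 988 units with insulin and at 756, 737 and 752 with Torin1. The spread within each group was small and the groups did not overlap. The means were 989 ± 3.61 and 748 ± 10.02, with a log2 fold change of -0.40 (SE 0.05, limma adjusted p = 2.62e-08). Its close paralog RRAGB, which can take its place in the pair, was at 305, 320 and 300 units with insulin and 345, 341 and 337 with Torin1. RRAGB was not called (log2 fold change 0.15, limma adjusted p = 0.0593). With equal totals it was called, at 0.27, and with quantile normalization its log2 fold change was -0.02.

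RRAGC encodes the second Rag of the pair, the partner that acts when loaded with GDP. It had 2205, 2479 and 2133 units with insulin and 1031, 1058 and 986 with Torin1. The groups were far apart, with the lowest insulin library well above the highest Torin1 library. The mean fell from 2272 ± 183 to 1025 ± 36.4 (SD, n = 3 each), and the log2 fold change was -1.15 (SE 0.05, limma adjusted p = 4.02e-16). The fall passed beyond 1.5-fold with an adjusted p of 3.09e-10 and rests on about 708 to 2026 reads per library in the 5 libraries with an estimate.

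RRAGD encodes the alternative to RRAGC and is known as a target of the MiT/TFE transcription factors, which act in lysosomal biogenesis. Its values were 519, 549 and 515 units with insulin and 593, 611 and 542 with Torin1. The groups overlapped, since the second insulin library lay above the third Torin1 library. The means were 528 ± 18.6 and 582 ± 35.8, a log2 fold change of 0.14 (SE 0.06, limma adjusted p = 0.0345). The call was lost without insulin replicate 1 (adjusted p = 0.0688), insulin replicate 3 (0.0914), Torin1 replicate 1 (0.117) or Torin1 replicate 2 (0.17). With equal library totals the log2 fold change was 0.27 (adjusted p = 0.000249).

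The balance between the alternative partners was computed in each library. The log2 ratio of RRAGD to RRAGC was -2.08, -2.17 and -2.05 in the insulin libraries and -0.80, -0.79 and -0.86 in the Torin1 libraries. The groups stood apart by 1.29 on the log2 scale, or 2.44-fold in favour of RRAGD with Torin1. Most of this was the fall of RRAGC (log2 fold change -1.15), as RRAGD changed by only 0.14 with overlapping groups. An exact two-sided permutation test gave p = 0.1, the smallest value that 3 libraries against 3 allow. The ratio itself mixes genes of different length, so only its change between groups can be read. Leaving out any 1 library kept the change between 1.25 and 1.31.

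**Figure D2:**
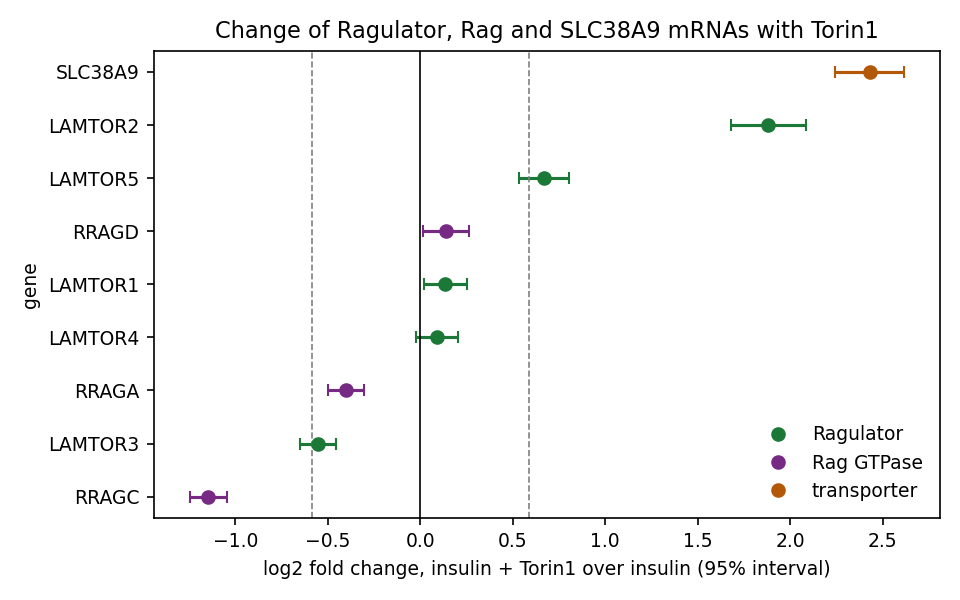
Log2 fold change of each of the 9 genes (horizontal axis, insulin with Torin1 over insulin alone), ordered by size and coloured by role, with limma's 95% interval; dashed lines mark 1.5-fold in either direction. SLC38A9 at 2.43, LAMTOR2 at 1.88 and RRAGC at -1.15 have intervals wholly outside the lines, and the interval of LAMTOR4 spans 0.

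SLC38A9 showed the largest change of the 9 genes. It was at 85, 83 and 90 units with insulin and at 453, 489 and 460 with Torin1. Each group was tight, and the lowest Torin1 library stood far above the highest insulin library. The mean rose from 86.0 ± 3.61 to 467 ± 19.1 units (SD, n = 3 each), and the log2 fold change was 2.43 (SE 0.09, limma adjusted p = 2.75e-17). Beyond 1.5-fold the adjusted p was 7.53e-15, and 96.1% of all genes tested had a smaller or more negative log2 fold change. About 50 to 475 reads per library stand behind these values in the 5 libraries with an estimate. The genes whose pattern over the 6 libraries was nearest to that of SLC38A9 were MBTPS2, NUCKS1 and LYPD1. Their Euclidean distances on the centred log2 scale were 0.0598, 0.0850 and 0.0886, and their log2 fold changes were 2.46, 2.47 and 2.38. The distance covers only these 6 libraries in 2 groups.

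Promoter sequences are shown for the 3 genes that moved beyond 1.5-fold, as 250 bases before the annotated start from RefSeq (GRCh38.p14), 5′ to 3′ on the gene's strand. Capitals mark CACGTG, the core of the E-box bound by the MiT/TFE and MYC families of transcription factors, a palindrome that reads alike on both strands.
RRAGC, chr1:38859773-38860022, minus strand: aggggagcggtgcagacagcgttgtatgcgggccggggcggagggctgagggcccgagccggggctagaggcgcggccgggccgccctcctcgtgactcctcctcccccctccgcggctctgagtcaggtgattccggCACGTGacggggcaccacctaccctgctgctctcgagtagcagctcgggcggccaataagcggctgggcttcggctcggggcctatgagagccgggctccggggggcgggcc
LAMTOR2, chr1:156054532-156054781, plus strand: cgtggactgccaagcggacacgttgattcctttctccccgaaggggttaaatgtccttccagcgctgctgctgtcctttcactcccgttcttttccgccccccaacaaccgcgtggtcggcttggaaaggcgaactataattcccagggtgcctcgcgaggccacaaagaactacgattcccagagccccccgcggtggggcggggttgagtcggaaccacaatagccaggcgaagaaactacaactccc
SLC38A9, chr5:55712336-55712585, minus strand: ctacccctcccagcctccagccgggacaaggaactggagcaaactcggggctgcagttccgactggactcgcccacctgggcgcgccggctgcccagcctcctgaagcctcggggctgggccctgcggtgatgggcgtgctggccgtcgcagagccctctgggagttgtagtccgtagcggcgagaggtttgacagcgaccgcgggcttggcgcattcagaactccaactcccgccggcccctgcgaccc

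The RRAGC promoter holds the hexamer 112 bases before the start, and the letters CACGTG are not in the LAMTOR2 or SLC38A9 sequence. RefSeq windows of 250 bases before to 50 after a start were found for 7 of the 9 genes (11 windows), and 3 of these genes had a match. Of all 27305 genes with such windows, 8.77% have a match, and of all 35116 windows, 7.26% hold CACGTG. The other matches lay 165 bases before the start of LAMTOR1 and 14 bases before that of LAMTOR4, and are shown with 12 bases on each side.
LAMTOR1, chr11:72103445-72103474, minus strand: ctttccccgcatCACGTGcttgcgtgtacg
LAMTOR4, chr7:100148892-100148921, plus strand: agcggctgcaagCACGTGaccggggcctga
The 3 genes with a match had log2 fold changes of -1.15 (RRAGC), 0.13 (LAMTOR1) and 0.09 (LAMTOR4), and the 4 without one in their windows had 1.88 (LAMTOR2), -0.55 (LAMTOR3), 0.67 (LAMTOR5) and 2.43 (SLC38A9). The motif was chosen after these values were seen. The longer form TCACGTGA was in none of the 11 windows, and 0.980% of all windows hold it. A match is a match of letters and shows no binding, and the windows of RRAGA and RRAGD were not used here.

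The genes around the 9 in lysosomal amino acid signalling mostly fell. Of 63 genes on 7 lists of regulators and partners, 14 were higher, 41 were lower and 8 were not called, with a median log2 fold change of -0.40. The median of all genes tested was 0.02, with 43.4% higher and 42.5% lower. Of the 16 tested subunit genes of the vacuolar ATPase, the lysosomal proton pump that binds Ragulator, 14 fell and 1 rose (median -0.69). ATP6V1E1 fell from 2699 ± 92.7 to 942 ± 28.1 units (log2 fold change -1.52), and the log2 fold changes of ATP6V1D and ATP6V0C were -1.498 and -1.46. ATP6V0C was low, at 31.0 ± 8.54 units with insulin and 10.3 ± 0.58 with Torin1, and its SE was 0.29. With quantile normalization 12 fell and 3 rose, and with equal totals 12 fell and 2 rose.

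Among mTORC1 subunits, RHEB genes and the TSC complex that restrains RHEB, 8 of 10 fell and 2 rose (median -0.44). With quantile normalization 6 fell and 2 rose (median -0.72), and with equal totals 8 fell and 2 rose (median -0.31). TSC1 fell from 14295 ± 412 to 1741 ± 25.0 units (log2 fold change -3.04). AKT1S1, the gene of the mTORC1 inhibitor PRAS40, fell from 3737 ± 275 to 927 ± 43.0 (-2.01). RHEBL1, a RHEB paralog, fell by 2.15 on the log2 scale (SE 0.23), from a low 63.0 to 13.7 units. TSC1 and AKT1S1 encode negative regulators of mTORC1. TSC2, the gene of another TSC complex subunit, went the other way, from 1117 ± 67.3 to 2379 ± 81.8 units (log2 fold change 1.09).

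GATOR1 is the GTPase-activating complex that switches RRAGA off, and KICSTOR anchors it to the lysosome. Of 7 genes, 4 fell, 1 rose and 2 were not called, and with equal totals 3 fell and 3 rose. The log2 fold changes were -1.09 for C12orf66, -0.90 for DEPDC5 and -0.39 for KPTN. In GATOR2 and the amino acid sensors upstream of GATOR1, 4 of 10 rose and 4 fell, with a median of 0.03 that was 0.15 with equal totals and -0.07 with quantile normalization. The GATOR2 genes MIOS and WDR59 rose by log2 fold changes of 1.65 and 1.60, with MIOS going from 147 ± 20.6 to 460 ± 16.8 units. SESN2, which encodes a leucine sensor that is also induced by stress, fell from 3615 ± 167 to 716 ± 12.1 (log2 fold change -2.33).

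Folliculin and its partners act on RRAGC and RRAGD, which in turn control MiT/TFE factors. Of these 6 genes 4 fell and 2 rose, or 1 rose with quantile normalization. MITF rose from a low 24.7 ± 6.51 to 172 ± 23.0 units (log2 fold change 2.78). TFE3 fell from 1464 ± 48.9 to 421 ± 4.93 (-1.80), and FNIP1, a folliculin partner gene, fell by 1.37 on the log2 scale. Among the other regulators of the Rags, 4 of 6 fell and none rose, though RRAGB was called higher with equal totals. NPC1, the lysosomal cholesterol exporter gene, fell from 3923 ± 248 to 759 ± 17.7 (log2 fold change -2.37). The amino acid transporter gene SLC36A1 and TMEM55B had log2 fold changes of -1.06 and -1.04. In BORC, a complex that positions lysosomes and binds Ragulator, 4 of 8 rose and 3 fell (median 0.23). With equal totals 5 rose and 2 fell, and with quantile normalization the counts were 4 and 3 with a median of 0.07. SNAPIN and LOH12CR1 (BORCS5) rose by log2 fold changes of 1.21 and 0.91 (0.56 for LOH12CR1 with quantile normalization), and C17orf59 (BORCS6) fell by 1.43. Adjusted p-values of all named genes of these lists came from the same limma fit.

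**Figure D3:**
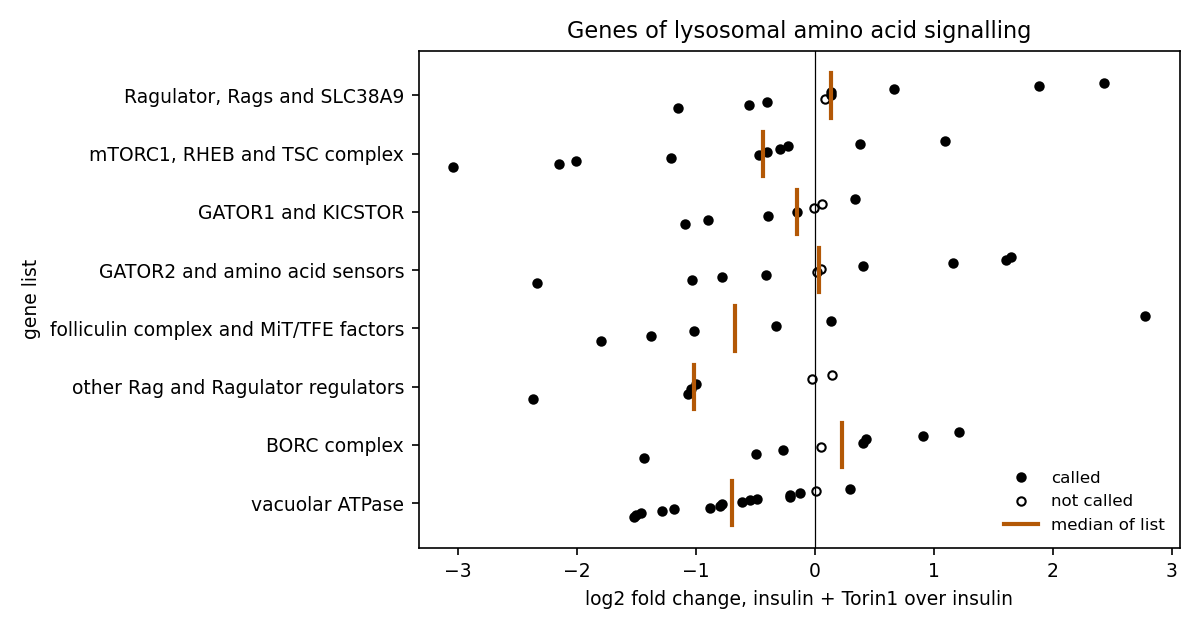
Log2 fold change (horizontal axis, insulin with Torin1 over insulin alone) of every tested gene among the 9 genes and 7 lists of regulators and partners; each point is a gene, filled where called and open where not, and the orange bar is the list's median. Points within a list are shifted vertically only to keep them apart. The vacuolar ATPase list lies mostly below 0 with a median of -0.69, and the BORC list has a median of 0.23 (0.07 with quantile normalization).

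For m6A, the authors gave 1 list of sites per condition, and each position appears once per list, under 1 replicate. The lists therefore give no spread over replicates, and the part of depth in a site's absence from a list was not tested. The listed 5-mer had its central A at the listed position in 2027 of 2027 sites that lie in RefSeq promoter windows. RRAGC held 17 sites with insulin and 11 with Torin1, 7 of them at the same position, and RRAGA held 9 and 6, of which 6 were shared. LAMTOR3 held 6 and 2, LAMTOR1 4 and 2, LAMTOR2 2 and 2, LAMTOR4 2 and 1, and RRAGD 1 and 1. No site on the gene's strand was listed for LAMTOR5 or SLC38A9. The median over the 10417 tested genes with a RefSeq body and strand was 3 sites in each list, and 13.5% had none in either. RRAGC exceeded 90.9% of these genes with insulin and 90.5% with Torin1.

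The count of sites over the 9 genes was 0.610 times as high in the Torin1 list, beside 0.658 for all sites. Of the insulin sites 23 were listed under replicate 1, 17 under replicate 2 and 1 under replicate 3. Of the Torin1 sites 22 were under replicate 1 and 3 under replicate 3, so the lists differ in how far each replicate fed them. Among sites listed under replicate 1 the ratio was 0.957 for the 9 genes and 1.11 for all sites. How a position was assigned to a replicate is not given in the sources used here. These ratios therefore describe the lists and do not compare the replicate 1 libraries. Of the members' positions, 19 were in both lists, which is 46.3% of those listed with insulin (Wilson 95% interval 32.1% to 61.3%) and 76.0% of those with Torin1 (56.6% to 88.5%). For all sites these shares were 28.3% and 43.1%. Such intervals cover counting error only and treat sites as independent, though RRAGC held 7 of the 19 shared positions and RRAGA 6. With insulin the median reads per site were 12 for the 9 genes and 8 for all sites, and with Torin1 they were 26 and 12. The part of depth in these shares was not tested.

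The sites rest on few substituted reads. A single substituted read carried 28 of the 41 insulin sites and 12 of the 25 Torin1 sites, or 68.3% and 48.0%, beside 61.6% and 59.6% of all sites. In sum 63 of 1011 reads over the insulin sites were substituted (6.23%) and 54 of 902 over the Torin1 sites (5.99%).

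In RRAGC the sites gathered at the end of the gene (chr1:38838198-38859772, minus strand): 14 of 17 with insulin and 10 of 11 with Torin1 lay within 1500 nt of the annotated end. RefSeq transcript models were not used here, so exon, intron and UTR are not given for sites. The 5-mers of shared RRAGC sites are given below with the methylated A in capitals, followed in the next sentences by their reads.
RRAGC 38838296: ggAcc
RRAGC 38838642: ggAct
RRAGC 38839182: agAct
RRAGC 38839314: gaAct
RRAGC 38839434: agAca
RRAGC 38839481: ggAca
RRAGC 38851696: agAca
At 38839434 substituted reads were 5 of 16 with insulin (31.3%, Wilson 95% interval 14.2% to 55.6%) and 1 of 26 with Torin1 (3.85%, 0.682% to 18.9%). This was the largest drop among the shared sites with at least 10 reads in both lists, with a Fisher's exact p of 0.0232 and an adjusted p of 0.507 over all 16496 positions tested. At 38839481 they were 3 of 13 and 3 of 22, at 38839314 they were 2 of 15 and 1 of 21, and at 38839182 they were 1 of 19 and 2 of 41. The remaining shared sites had fewer than 10 reads in at least 1 list. Substituted reads were 1 of 6 and 2 of 11 at 38838296 and 1 of 21 and 2 of 7 at 38838642. At 38851696 they were 1 of 3 and 3 of 7.

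RRAGA (chr9:19049427-19051025, plus strand) had its 6 shared sites in a stretch from 370 to 537 nt after the gene start. The most substituted reads were at 19049964, with 5-mer ggAca, where they were 6 of 45 with insulin (13.3%, Wilson 95% interval 6.26% to 26.2%) and 10 of 127 with Torin1 (7.87%, 4.33% to 13.9%). At 19049953 (gaAct) they were 2 of 29 and 3 of 81, and at 19049844 (ggAct) 2 of 50 and 3 of 92. At 19049859 (ggAca) they were 1 of 49 and 3 of 88, at 19049835 (gaAcc) 1 of 51 and 1 of 78, and at 19049797 (gaAca) 1 of 10 and 1 of 27. All 6 RRAGA positions had more reads with Torin1, as had 76.3% of all positions tested, while the input level of RRAGA was lower.

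The Ragulator genes had fewer shared sites. LAMTOR2 (chr1:156054782-156058506, plus strand) had both of its positions in both lists. Substituted reads were 1 of 8 with insulin and 1 of 46 with Torin1 at 156055310 (ggAca), and 1 of 7 and 2 of 26 at 156058450 (agAca). LAMTOR1 (chr11:72097292-72103297, minus strand) had 1 of 9 and 1 of 34 at 72097591 (ggAca) and 1 of 4 and 2 of 12 at 72097805 (ggAca). LAMTOR3 (chr4:99878336-99894546, minus strand) had 2 of 6 and 1 of 14 at 99881682 (aaAct) and 1 of 11 and 1 of 10 at 99882021 (gaAct). Among sites of 1 list, LAMTOR3 had 3 of 5 reads at 99881989 (tgAca) with insulin. LAMTOR4 (chr7:100148918-100154203, plus strand) had 4 of 65 at 100154115 (ggAct) with Torin1. RRAGD (chr6:89364616-89412273, minus strand) had 1 of 10 at 89387371 (tgAct) with insulin and 3 of 7 at 89367963 (ggAca) with Torin1.

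No shared position of the 9 genes was called. Of the 19, 11 had at least 10 reads in both lists and were tested by Fisher's exact test, which compares the reads of 2 libraries and not the conditions. Only RRAGC 38839434 had an unadjusted p below 0.05. Of all positions tested 0.242% were called (40 of 16496), and 1229 had an unadjusted p below 0.05. The substituted fraction was lower with Torin1 at 9 of the 11 tested (14 of all 19), beside 69.8% of all positions tested. More reads covered the position with Torin1 at 10 of the 11 (17 of all 19), beside 76.3% of all positions tested.

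**Figure D4:**
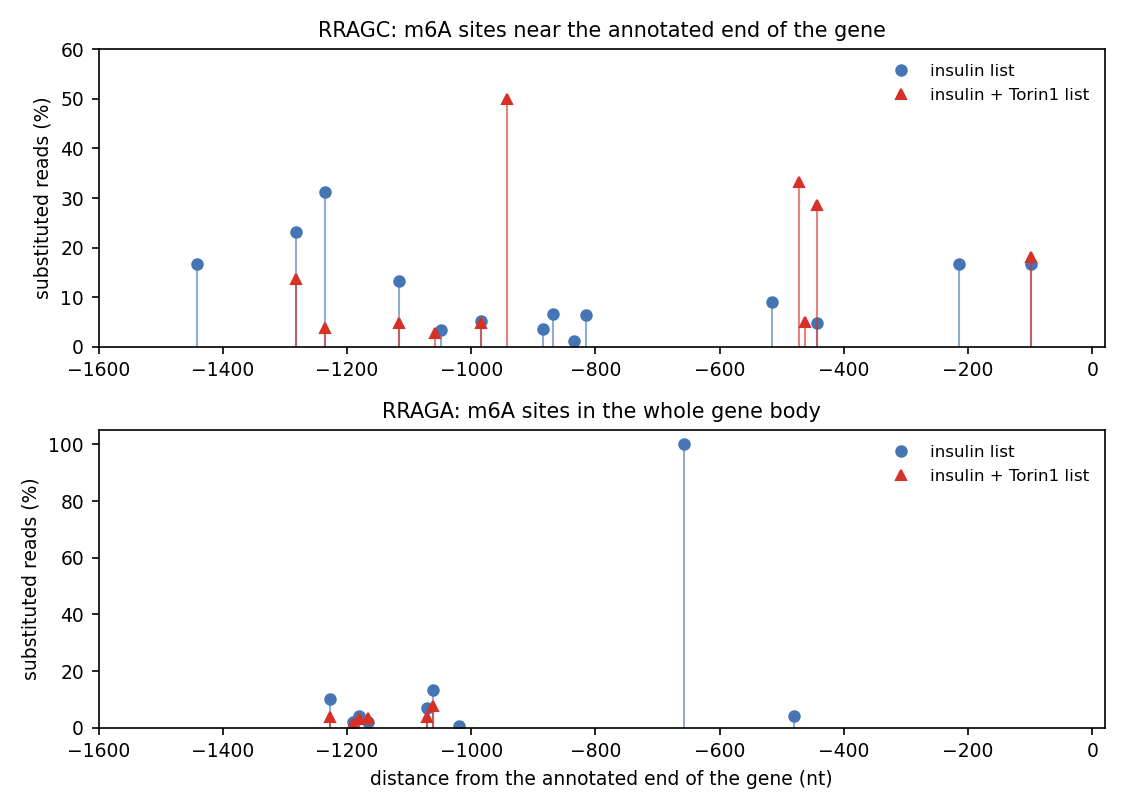
Percent of reads with a substitution (vertical axis, without intervals) at m6A sites of RRAGC and RRAGA by distance from the annotated end of the gene in nt, as negative values towards the start; circles are the insulin list and triangles the Torin1 list. Of the RRAGC sites, 3 with insulin and 1 with Torin1 lie more than 1600 nt from the end and are not drawn, and the RRAGA site at 100% rests on 1 read. The shared RRAGA sites lie between 1061 and 1228 nt from the end.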

How the data were processed

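The authors deposited 1 expression table for the 6 input libraries and 1 list of m6A sites per condition. DESeq, DESeq2 1.22.2, STAR, BWA 0.7.1 and the build hg38 are listed in the submitters' processing notes, with no step given for any of them. The expression score that the authors deposited had been normalized between libraries and rounded to whole numbers by them, judging from the grid of values in the file. For each site the authors deposited a fraction, which equals the number of reads with a substitution over the number covering the site.

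Expression was tested with limma 3.58.1 (R 4.3.3) (variance trend on) after adding 1 and taking log2, in genes with at least 10 units in at least 3 libraries. Benjamini-Hochberg adjusted p-values below 0.05 were called, and limma's treat asked for a change beyond 1.5-fold. Fold changes on the log2(value + 1) scale understate those of low genes. Where a library was left out, the filter asked for at least 2 libraries. The limma step was first run on simulated data in which few genes changed. In these data most tested genes were called, so that run cannot vouch for the calls. Sites were assigned to RefSeq gene bodies on the gene's strand, and shared positions with at least 10 reads in both lists were compared by a two-sided Fisher's exact test, adjusted over all such positions. Strand came from the RefSeq promoter table; RRAGA and RRAGD took the strand of the sites in their bodies.

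Samples were grouped by their labels. The members and gene lists were chosen with earlier results of these data known. All members were named, with RRAGB, TSC2 and up to 3 called genes of largest change per list. Named sites were those in both lists or with at least 5 substituted reads, and otherwise each gene's site with the most. For SLC38A9 the 3 nearest genes by distance were named. The alternatives were another pseudocount, filter, scaling, variance model, coverage minimum and replicate block, and leaving out each replicate. Proteins and transcript models were not used here.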

Additional observations from a re-analysis of the deposited data

How the results depend on the processing

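LAMTOR2, LAMTOR3, LAMTOR5, RRAGA, RRAGC and SLC38A9 kept their direction and call in each of 12 alternatives, and 3 members were called lower in each. Of these genes LAMTOR3 moved by over 1.5 times, to -0.36 with quantile normalization. LAMTOR4 was called with equal totals (log2 fold change 0.21, limma adjusted p = 0.00102). LAMTOR1 lost its call without the filter (0.13, adjusted p = 0.0621) and without the variance trend (0.13, 0.114), and ranged from 0.068 to 0.18 with a library left out; it was 0.26 with equal totals (adjusted p = 0.000134) and 0.23 with quantile normalization (0.000458). RRAGD lost its call without the variance trend (0.14, adjusted p = 0.071) and ranged from 0.10 to 0.19 with a library left out; with equal totals it was 0.27 (adjusted p = 0.000249). The count of members called higher was 3 without the variance trend, 4 without the filter and 6 with equal totals, and ranged from 3 to 5 with a library left out.

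Member sites with at least 3 substituted reads numbered 4 with insulin, 8 with Torin1 and 2 in both lists, beside 15460 and 11751 over all sites, where the insulin list remained the longer. With at least 10 reads there were 27 insulin sites and 11 shared ones. Replicate 1 alone gave 23 insulin sites. Leaving out a replicate gave 18 to 40 insulin sites, 3 to 25 Torin1 sites and 1 to 18 shared positions. Positions tested numbered 17 at a coverage of 5 and 5 at a coverage of 20, with 0 called in either.

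With the replicate block, 5 members were called higher and 3 lower, and no member's call changed. Same-numbered libraries did not deviate together (correlations -0.023, 0.0097 and -0.0040). With 3 libraries per group this cannot tell whether libraries of the same number were prepared together. A single substituted read carried 28 of the 41 insulin sites and 12 of the 25 Torin1 sites.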

Other observations

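Some m6A sites lay beside the members on the other strand or before the annotated start, and entered none of the counts above. On the plus strand of the LAMTOR5 body, position 110407558 had 1 of 1 substituted reads with insulin and 2 of 3 with Torin1, and position 110407736 had 1 of 14 with Torin1. On the strand of LAMTOR5 itself, position 110407935, 11 nt before the start, had 1 of 2 with insulin. On the plus strand of the SLC38A9 body, position 55712247 had 3 of 3 with insulin. LAMTOR3 had 1 site near its start that RefSeq's promoter window covers, 149 nt after the start at 99894397, with 1 of 37 reads substituted under insulin. It is shown with the listed 5-mer in capitals: ttgaggagGAACCtgtcttta.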
